A study of Homo sapiens with 4 samples.

Results

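Core histone genes encode the H2A, H2B, H3 and H4 proteins around which DNA is wound in the nucleosome. The genes described here are those whose current symbol is H2A, H2B, H3 or H4 followed by C and a number, the replication-dependent genes formerly named HIST1H, HIST2H and so on. A probe set that measured 1 gene alone was found for 50 of the 63 such genes in the RefSeq gene table, out of 19798 genes measured in all: 13 of 17 H2A genes, 17 of 18 H2B genes, 9 of 13 H3 genes and 11 of 15 H4 genes. The other 13 genes (H2AC7, H2AC13, H2AC18, H2AC19, H2BC18, H3C4, H3C13, H3C14, H3C15, H4C11, H4C12, H4C14 and H4C15) had no probe set of their own and were not analysed here. The 50 genes were measured by 59 probe sets, 42 of them by 1, 7 by 2 and 1, H2AC6, by 3.

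Total RNA of HCT-116 dicer- cells was hybridised to 4 arrays of a single colour. HCT-116 is a human colon carcinoma line, and Dicer is the enzyme that makes microRNAs from their hairpins. All 4 arrays, mock included, were of these cells at 24 h: 2 mock transfections, 1 transfection with 10 nM miR-124 G/P, here called the intact duplex, and 1 with 10 nM miR-124 G10.12/P, here called the segmented duplex after the title of the series. The labels do not say whether the line is 1 clone or whether separate cultures were used for the mock pair. The p-values thus reflect the spread of this mock pair alone, and that spread may be technical.

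Replication-dependent histone genes lie in clusters, are transcribed mainly in S phase when DNA is copied, and yield messenger RNAs that end in a stem-loop in place of a poly(A) tail. The stem-loop is bound by SLBP, and NPAT activates transcription of the clusters. Some of these genes can also give polyadenylated transcripts, known from cells that have left the cycle or differentiated. The labels do not state how the RNA was primed for amplification, so whether stem-loop or polyadenylated histone transcripts, or both, were measured cannot be told apart. Copies of one histone family are near-identical in their coding sequence, and reads of one copy by the probes of another were not tested.

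Of the core histone genes 14 of 50 passed the test with the intact duplex, and 12 of these rose. With the intact duplex 12 of 50 rose, 2 fell and 36 did not pass the test (limma, Benjamini-Hochberg adjusted p under 0.05 over all 19798 genes). Over all genes 14.5% rose and 10.4% fell, against 24% and 4% of the core histone genes. The segmented duplex gave 8 that rose and 0 that fell, where 3.31% of all genes rose and 2.68% fell; 12 members had an unadjusted p under 0.05, and the number that fell was 3 with a trended and robust prior. All 8 that rose with the segmented duplex were among the 12 that rose with the intact duplex; both comparisons use the same mock arrays. The median log2 change over the 50 genes was 0.08 with the intact and 0.02 with the segmented duplex, beside 0.02 and 0.01 over all genes. These values rest largely on dim genes, since only 16 of the 50 lie outside the dimmest 40% of all genes. Over these 16 members the medians were 1.40 and 0.71. After the dimmest genes were dropped 10 rose and 3 fell with the intact duplex and 9 and 2 with the segmented one. The filter used the mean over all 4 arrays, so a gene could pass through duplex arrays where it was high. H2BC11 was kept with a mock mean of 5.02, while H3C12, at 5.45, was left out. The medians and counts of the 16 are thus selected in part on the change itself. For no alternative setting is a share of all genes given. With each array centred on its median, which moves the median of all genes to -0.23 and -0.18, the intact duplex gave 11 that rose and 6 that fell, the segmented duplex 8 and 1, and the medians of the list were -0.16 and -0.17.

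**Figure D1:**
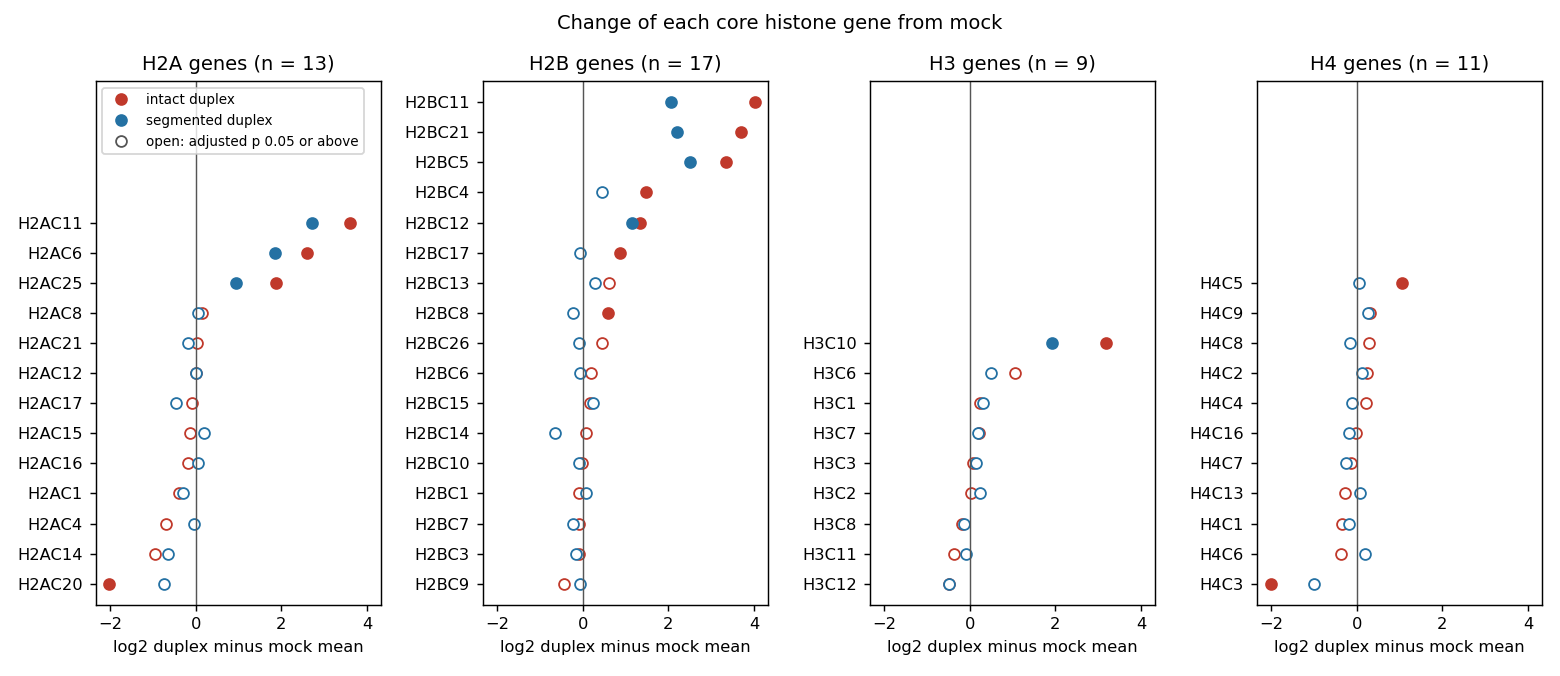
Log2 difference of the intact (red) and segmented (blue) duplex array from the mean of the 2 mock arrays (x axis) for each of the 50 measured core histone genes (y axis), by family; filled points have a limma adjusted p under 0.05. The filled points lie mostly to the right of 0, led by H2BC11 at 4.03 with the intact duplex, while H2AC20 and H4C3 lie near -2.

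The counts by family are read against the 14.5% of all genes that rose and the 10.4% that fell with the intact duplex. Among H2B genes 7 of 17 rose with the intact duplex and 0 fell, among H2A genes 3 of 13 rose and 1 fell, among H3 genes 1 of 9 rose and 0 fell, and among H4 genes 1 of 11 rose and 1 fell. With the segmented duplex, where 3.31% of all genes rose, 4 of 17 H2B genes, 3 of 13 H2A genes and 1 of 9 H3 genes rose. By the brightest probe set of each gene, 0 of 11 H4 genes did. The median log2 change with the intact duplex was 0.44 for H2B, -0.08 for H2A, 0.07 for H3 and -0.01 for H4. The difference between families was not tested.

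The promoters of the 8 genes that rose with both duplexes, and of H4C5, are shown because several of these genes share a promoter with a neighbour whose values follow below. Each stretch is the 250 bases before the RefSeq start of the gene, from 5′ to 3′ on the gene's own strand (build GRCh38.p14). Capitals mark CCAAT, the octamer ATTTGCAT and the TATA-type run TATAAA on either strand, so that ATTGG, ATGCAAAT and TTTATA are also in capitals; the stretch TTTATAAA holds TATAAA on both strands. H2BC11 (chr6:27132796-27133045, minus strand) shares its stretch with H2AC11, H2BC21 (chr1:149886683-149886932, minus strand) with H2AC20, H2AC6 (chr6:26123922-26124171, plus strand) with H2BC4, and H2AC25 (chr1:228457874-228458123, minus strand) with H2BC26. The others are those of H2BC5 (chr6:26157871-26158120, plus strand), H2BC12 (chr6:27146859-27147108, minus strand), H3C10 (chr6:27809801-27810050, plus strand) and H4C5 (chr6:26204360-26204609, plus strand). Sharing was looked up only between neighbouring H2A and H2B genes that both have a RefSeq window, so a shared start may be missed for these.
H2BC11: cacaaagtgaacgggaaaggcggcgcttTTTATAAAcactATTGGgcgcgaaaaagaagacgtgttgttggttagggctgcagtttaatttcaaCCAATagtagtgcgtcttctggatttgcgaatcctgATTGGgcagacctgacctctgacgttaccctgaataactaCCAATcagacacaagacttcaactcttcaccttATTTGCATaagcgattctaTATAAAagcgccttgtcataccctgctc
H2BC21: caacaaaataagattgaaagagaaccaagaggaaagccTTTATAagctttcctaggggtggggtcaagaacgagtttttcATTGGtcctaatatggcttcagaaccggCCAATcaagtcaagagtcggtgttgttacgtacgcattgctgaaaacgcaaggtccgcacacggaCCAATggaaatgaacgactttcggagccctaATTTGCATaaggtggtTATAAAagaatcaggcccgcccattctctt
H2AC6: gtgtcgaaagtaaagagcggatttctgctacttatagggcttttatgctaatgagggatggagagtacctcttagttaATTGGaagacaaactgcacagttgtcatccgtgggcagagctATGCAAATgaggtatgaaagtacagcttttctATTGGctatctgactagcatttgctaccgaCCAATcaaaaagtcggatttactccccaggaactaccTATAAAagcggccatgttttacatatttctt
H2AC25: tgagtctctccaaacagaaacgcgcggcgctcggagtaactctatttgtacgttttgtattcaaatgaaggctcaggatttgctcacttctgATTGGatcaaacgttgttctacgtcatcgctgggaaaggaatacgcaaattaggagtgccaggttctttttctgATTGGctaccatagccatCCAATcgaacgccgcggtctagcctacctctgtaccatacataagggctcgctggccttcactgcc
H2BC5: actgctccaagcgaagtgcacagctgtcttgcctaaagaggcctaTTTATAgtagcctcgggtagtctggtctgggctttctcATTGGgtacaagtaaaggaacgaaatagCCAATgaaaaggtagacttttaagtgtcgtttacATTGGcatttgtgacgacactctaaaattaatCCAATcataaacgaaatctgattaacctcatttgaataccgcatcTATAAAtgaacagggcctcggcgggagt
H2BC12: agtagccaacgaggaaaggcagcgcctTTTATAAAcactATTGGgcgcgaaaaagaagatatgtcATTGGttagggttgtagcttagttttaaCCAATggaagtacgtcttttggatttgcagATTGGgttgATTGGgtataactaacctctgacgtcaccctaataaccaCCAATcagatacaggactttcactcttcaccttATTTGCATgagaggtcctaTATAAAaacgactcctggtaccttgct
H3C10: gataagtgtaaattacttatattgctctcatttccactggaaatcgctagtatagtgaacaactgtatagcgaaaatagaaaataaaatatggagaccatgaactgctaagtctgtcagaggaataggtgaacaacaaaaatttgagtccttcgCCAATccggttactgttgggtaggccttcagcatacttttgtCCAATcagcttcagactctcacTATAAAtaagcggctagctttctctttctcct
H4C5: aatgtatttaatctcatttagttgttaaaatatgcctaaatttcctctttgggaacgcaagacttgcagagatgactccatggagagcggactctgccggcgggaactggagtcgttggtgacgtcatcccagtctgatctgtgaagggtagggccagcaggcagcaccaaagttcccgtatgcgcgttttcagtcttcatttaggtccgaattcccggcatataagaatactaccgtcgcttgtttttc

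The octamer, which the transcription factor POU2F1 binds and which is known from H2B promoters, was found in H2A and H2B windows and in none of the 7 H3 and 9 H4 windows. Of the 45 measured members with a RefSeq window (250 bases before to 50 after the start), 23 held ATTTGCAT on either strand, 39 held CCAAT and 31 held TATAAA; over the windows of all 27305 genes the shares were 2.19%, 39.7% and 14.0%. ATTTGCAT was in 6 of the 7 H2B genes that rose with the intact duplex and in 7 of the 10 that did not. CCAAT was in all 17 H2B, all 12 H2A and all 7 H3 windows, and in 3 of the 9 H4 windows. Among H2B genes TATAAA was in all 7 windows of those that rose and in 5 of the other 10, while among H2A genes it was in 2 of 3 that rose and in 7 of 9 that did not. H2BC5, H2AC25 and H3C10, which rose with both duplexes, had no ATTTGCAT in their windows, and H4C5 held none of the 3 runs. The windows of head-to-head H2A and H2B genes overlap, so the same run can be counted for both genes. The counts of these families are thus not of separate promoters. A match is a run of letters and not a shown binding site, and no match says only that these letters are not in the window.

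H2B genes, which encode the partner of H2A in the histone dimer, held the largest rise. H2BC11 had log2 intensities of 5.21 and 4.82 on the mock arrays, of 9.05 on the intact and of 7.09 on the segmented array. The mock arrays lay lowest, the intact array highest and the segmented array between them. The rise with the intact duplex was 4.03 (limma SE 0.21, adjusted p = 0.00822), or 16.4-fold, and with the segmented duplex 2.07 (adjusted p = 0.0363), or 4.20-fold. No detection call was used, so whether the mock values lie above background was not tested, and folds from dim mock values depend on it.

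H2BC21 was well separated between arrays. Its log2 intensities were 8.65 and 8.51 in mock cells, 12.27 with the intact and 10.78 with the segmented duplex. The rises were 3.69 (limma SE 0.13, adjusted p = 0.00822) and 2.20 (adjusted p = 0.0348), that is 12.9-fold and 4.59-fold. H2BC5 stood at 9.01 and 9.23 on the mock arrays, at 12.45 with the intact and at 11.62 with the segmented duplex. Both duplex arrays were far above the mock pair, with rises of 3.33 (limma SE 0.15, adjusted p = 0.00822) and 2.5 (adjusted p = 0.0348).

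H2BC12 also rose with both. It stood at 10.54 and 10.48 on the mock arrays, at 11.85 with the intact and at 11.65 with the segmented duplex, rises of 1.34 and 1.14 (limma adjusted p = 0.0099 and 0.0371). H2BC4 stood at 5.05 and 4.90 in mock cells, 6.44 with the intact and 5.44 with the segmented duplex; its rise of 1.47 passed with the intact duplex (limma adjusted p = 0.0103) and the 0.46 with the segmented duplex did not (adjusted p = 0.139). Smaller rises with the intact duplex were those of H2BC17, by 0.87 from 5.05 and 4.75 to 5.77, and of H2BC8, by 0.59 from 3.48 and 3.38 to 4.02 (limma adjusted p = 0.0403 and 0.0451). On the segmented array these 2 genes stood at 4.84 and 3.21. H2BC8 missed the threshold under 3 of the alternative settings, with limma adjusted p-values from 0.077 to 0.113 on log2 of the value + 16, with a trended and robust prior and with centred arrays, and was left out where the dimmest genes were.

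The other 10 H2B genes, H2BC1, H2BC3, H2BC6, H2BC7, H2BC9, H2BC10, H2BC13, H2BC14, H2BC15 and H2BC26, did not pass with either duplex, with changes from -0.42 to 0.61 with the intact duplex. H2BC10 had the smallest change with the intact duplex, at 1.93 and 2.04 in mock cells, 1.96 with the intact and 1.90 with the segmented duplex. H2BC1 is the testis form of H2B and stood at 3.81 and 3.82 in mock cells, 3.73 and 3.89 with the duplexes. H2BC13, at 0.61, passed under 4 alternative settings (limma adjusted p from 0.042 to 0.0497).

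Among H2A genes, whose product carries the acidic patch of the nucleosome, H2AC11 had the largest rise. It stood at 7.10 and 7.0 in mock cells, 10.65 with the intact and 9.76 with the segmented duplex, rises of 3.60 (limma SE 0.13, adjusted p = 0.00822) and 2.71 (adjusted p = 0.0348). The 2.71 was the largest change of any core histone gene with the segmented duplex. H2AC6 stood at 9.90 and 9.96 in mock cells, 12.53 with the intact and 11.77 with the segmented duplex. Its rises were 2.59 and 1.84 (limma adjusted p = 0.00822 and 0.0348). H2AC25 rose by 1.87 from 8.55 and 8.39 to 10.34 with the intact duplex and by 0.95 to 9.42 with the segmented duplex (limma adjusted p = 0.00885 and 0.0484).

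H2AC20 went the other way. Its log2 intensities were 10.49 and 10.22 in mock cells, 8.33 with the intact and 9.61 with the segmented duplex. It fell by 2.03 with the intact duplex (limma SE 0.17, adjusted p = 0.00954), a 4.08-fold difference. Both mock values lay above the segmented value too, but the change of -0.74 with that duplex did not pass (limma adjusted p = 0.0922); it passed under 4 of the 7 alternative settings of the fit, with adjusted p-values from 0.000123 to 0.038.

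The remaining 9 H2A genes, H2AC1, H2AC4, H2AC8, H2AC12, H2AC14, H2AC15, H2AC16, H2AC17 and H2AC21, did not pass, with changes from -0.95 to 0.15 with the intact duplex. H2AC12 had the smallest change with the intact duplex, at 5.71 and 5.89 in mock cells, 5.81 with the intact and 5.80 with the segmented duplex. H2AC14 stood at 7.89 and 7.30 in mock cells, 6.64 with the intact and 6.94 with the segmented duplex. Both duplex values were under both mock values, but the mock arrays themselves differed by more than 1.5-fold, and the -0.95 with the intact duplex had a limma adjusted p of 0.0883. H2AC14 passed under 5 alternative settings, with a limma adjusted p of 0.027 with centred arrays and 0.000624 with a trended and robust prior.

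Of the H3 genes, which encode the histone that carries many of the known methylation marks, 1 rose. H3C10 stood at 7.31 and 7.12 in mock cells, 10.40 with the intact and 9.13 with the segmented duplex. The mock values lay far below both duplex values, with rises of 3.18 (limma SE 0.15, adjusted p = 0.00822) and 1.92 (adjusted p = 0.0348), or 9.06-fold and 3.77-fold. H3C10 was read by a single probe set, for which the annotation gives no accession. H3C6 had mock values of 5.20 and 4.55 and stood at 5.94 with the intact and 5.37 with the segmented duplex; its 1.07 with the intact duplex did not pass (limma adjusted p = 0.0848), but did on log2 of the value + 16 and with a trended and robust prior (adjusted p = 0.0244 and 0.00237). The other 7, H3C1, H3C2, H3C3, H3C7, H3C8, H3C11 and H3C12, lay between -0.49 and 0.23 with the intact duplex, H3C2 the nearest to 0 at 0.04.

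Of the H4 genes, which encode the least variable of the core histones, H4C5 rose and H4C3 fell with the intact duplex. H4C3 had mock values of 9.35 and 8.64, 7.0 with the intact and 8.0 with the segmented duplex. Its fall of 2.00 with the intact duplex (limma SE 0.33, adjusted p = 0.026) was larger than the distance between the mock arrays, and the -1.0 with the segmented duplex did not pass (adjusted p = 0.165). After the dimmest 40% of genes were dropped, and with a trended and robust prior, the segmented change of H4C3 had limma adjusted p-values of 0.0196 and 0.0112. H4C5, named after its values were seen, stood at 4.99 and 4.95 in mock cells, 6.02 with the intact and 5.03 with the segmented duplex (rise of 1.05 with the intact duplex, limma adjusted p = 0.0136). These values are of its brighter probe set. Its dimmer probe set rose by 3.56 with the intact and by 2.44 with the segmented duplex. The other 9, H4C1, H4C2, H4C4, H4C6, H4C7, H4C8, H4C9, H4C13 and H4C16, lay between -0.37 and 0.32, H4C16 nearest to 0 at -0.01.

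**Figure D2:**
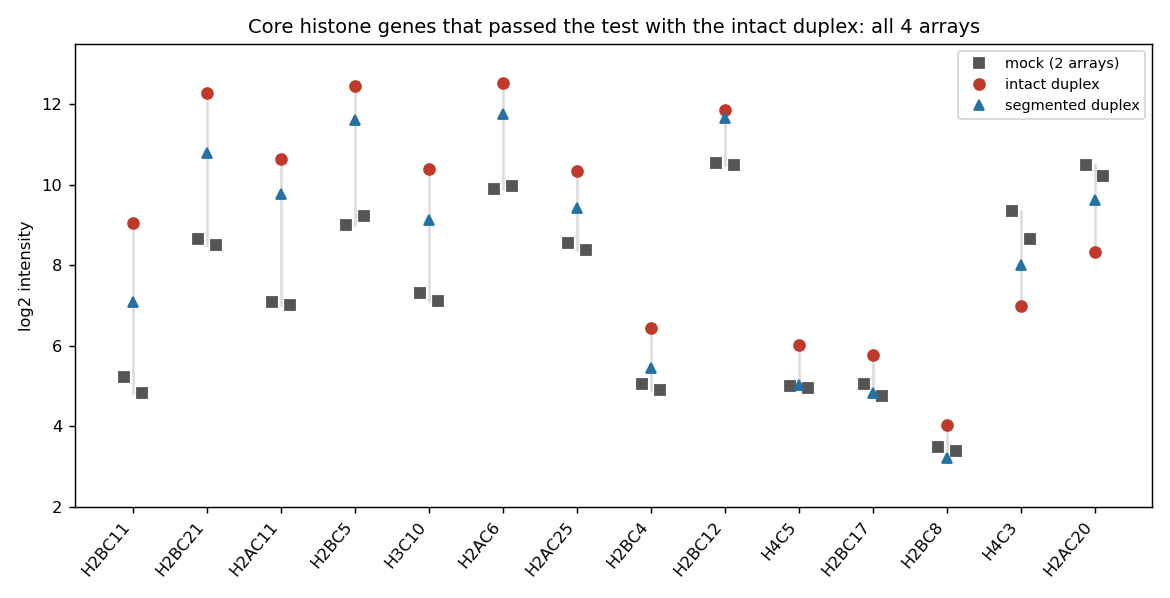
Log2 intensity (y axis) of the 14 core histone genes that passed the test with the intact duplex (x axis) on each of the 4 arrays: grey squares are the 2 mock arrays, red circles the intact and blue triangles the segmented duplex. Levels of different genes come from different probes and cannot be set against each other; within each of the 8 genes that rose with both duplexes the segmented array lies between the mock pair and the intact array, and in H2AC20 and H4C3 the order is turned round.

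A rule of size gave similar counts. With the intact duplex 12 members stood at least 1.5-fold above both mock arrays and 3 at least 1.5-fold below, where 13.7% and 9.52% of all genes did. The 12 included H3C6 in place of H2BC8, and the 3 were H2AC20, H4C3 and H2AC14. With the segmented one 8 stood above, the same genes as by the test, and 2 below, H2AC20 and H4C3, where 7.37% and 4.89% of all genes did. The mock arrays were at least 1.5-fold apart for 6 members (H2AC4, H2AC14, H2AC15, H3C6, H4C3 and H4C8), where 3.23% of all genes were. Measured against mock array 2 alone, the number below was 6 with the intact duplex, and against mock array 1 alone it was 4 with the segmented duplex.

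The segmented duplex gave a smaller change than the intact duplex in each of the 8 genes that rose with both, at 50.8% (H2AC25) to 85.2% (H2BC12) of the log2 change, with a median of 65.6%. These genes were chosen by both contrasts with mock, so the shares are a description. Tested directly, 0 of 50 members differed between the duplexes, as did 0 of 19798 genes (0% of all genes in either direction; limma, smallest adjusted p 0.181), while 13 members had an unadjusted p under 0.05. The log2 difference of segmented from intact was -1.96 for H2BC11 (95% interval from limma, -2.64 to -1.28), -1.49 for H2BC21 (-1.93 to -1.06), -1.26 for H3C10 (-1.74 to -0.79) and -0.89 for H2AC11 (-1.30 to -0.47). For H2AC20 it was 1.29 (0.73 to 1.84), and for H2BC12, where the interval includes 0, -0.20 (-0.60 to 0.20). The count depended on the prior and the filter: 10 members were lower and 2 higher with the segmented duplex with a trended and robust prior, 8 lower and 1 higher after the dimmest 40% of genes were dropped, and 9 lower and 1 higher on log2 of the value + 16. H2AC20 was higher and H2BC11, H2BC21, H2BC5, H2BC4, H2AC11, H2AC6, H2AC25 and H3C10 lower in all 3 of these. The filter used the mean over all arrays, so high duplex values helped a gene to be kept. H2BC11 and H2BC4 were kept with mock means of 5.02 and 4.98, while H3C12, at 5.45, was left out. The filtered counts are thus selected in part on the duplex values. The share of all genes called under these 3 settings is not given here. Both duplexes have a single array, so the spread behind every value comes from the mock pair.

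H2A and H2B genes often lie head to head and share the stretch between their starts. RefSeq places 11 such pairs as neighbours, 9 with both genes measured, and in all 11 each start lay within the window of its partner. Only 45 of the 50 measured members have a RefSeq window, and H2AC12 is among those without. A pair with such a gene would be missed. Both genes rose with the intact duplex in 2 pairs, H2AC11 with H2BC11 (3.60 and 4.03) and H2AC6 with H2BC4 (2.59 and 1.47). In 4 pairs 1 gene rose. H2BC17 rose while H2AC17 stood at -0.08, H2BC8 rose while H2AC8 stood at 0.15, and H2AC25 rose while H2BC26 stood at 0.44 (limma adjusted p = 0.851, 0.424 and 0.113 for the partners that did not pass).

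The fourth of these pairs held genes that went in opposite directions. H2BC21 rose by 3.69 and H2AC20, whose start lies within the same printed stretch, fell by 2.03 with the intact duplex, a distance of 5.72 log2 units. Each of these genes was read by 1 probe set, and reads of other histone copies by these probes were not tested. The same genes stood at 2.20 and -0.74 with the segmented duplex. In the 3 pairs where neither rose (H2AC1 with H2BC1, H2AC14 with H2BC14, H2AC15 with H2BC15) the partners lay 0.30 to 1.04 apart with the intact duplex. The difference within a pair was not tested.

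**Figure D3:**
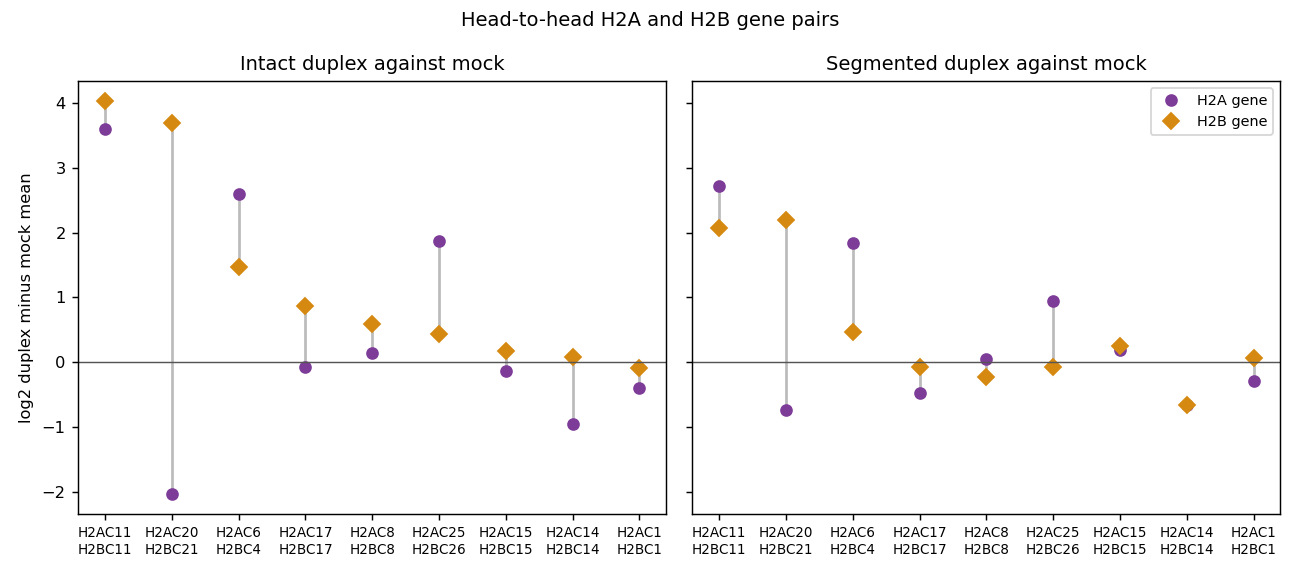
Log2 change from mock (y axis) of the H2A gene (purple circles) and the H2B gene (orange diamonds) of each of the 9 measured head-to-head pairs (x axis), for the intact duplex on the left and the segmented duplex on the right. H2AC20 and H2BC21 are the pair furthest apart, on opposite sides of 0 with both duplexes; H2AC11 and H2BC11 are both high.

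By former names, most members were HIST1 genes, and so were most that rose. For the counts in this paragraph, 14.5% of all genes rose and 10.4% fell with the intact duplex. With that duplex 10 of 44 measured HIST1 genes rose and 1 fell. Of 3 HIST2 genes 1 rose (H2BC21) and 1 fell (H2AC20), and of 2 HIST3 genes 1 rose (H2AC25). The single HIST4 gene, H4C16, did not pass. The smaller clusters hold too few genes for a comparison. RefSeq lists 2 mRNAs for 4 measured members, H2BC4, H2BC5, H2BC12 and H3C6, of which the first 3 rose with the intact duplex; of the 46 with a single mRNA 9 rose. This property was looked at after the values were seen.

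For the 8 members with several probe sets, the probe sets of a gene went the same way with the intact duplex in all 8 and with the segmented duplex in 7. When all 35184 single-gene probe sets were tested in place of genes, 20 of the 59 core histone probe sets rose and 2 fell with the intact duplex (limma adjusted p under 0.05; 13.8% and 11.7% of all probe sets), and the segmented duplex gave 14 that rose and 0 that fell (3.22% and 3.70%). The 3 probe sets of H2AC6 rose by 3.39, 3.28 and 2.59 with the intact duplex, the 2 of H2AC11 by 3.60 and 3.67, and the 2 of H2BC5 by 3.07 and 3.33.

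Other genes gave unequal values by probe set. For H4C5 the probe set that stands for the gene rose by 1.05 with the intact duplex and stood at 0.06 with the segmented duplex, while its dimmer probe set rose by 3.56 and 2.44, from 3.66 and 3.31 in mock cells to 7.05 and 5.92. For H2BC4 the values were 1.47 and 0.46 by one probe set and 2.68 and 1.68 by the other. When the probe sets of a gene were averaged, H4C5 (1.25) and H2BC4 (1.07) passed with the segmented duplex (limma adjusted p = 0.0315 and 0.0463), which made 10 members that rose. The annotation gives a RefSeq mRNA for the weaker probe set of both genes and no accession for the stronger. For H2BC17 with the segmented duplex the probe sets stood on opposite sides of 0, at -0.06 and 0.58, neither past the threshold.

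**Figure D4:**
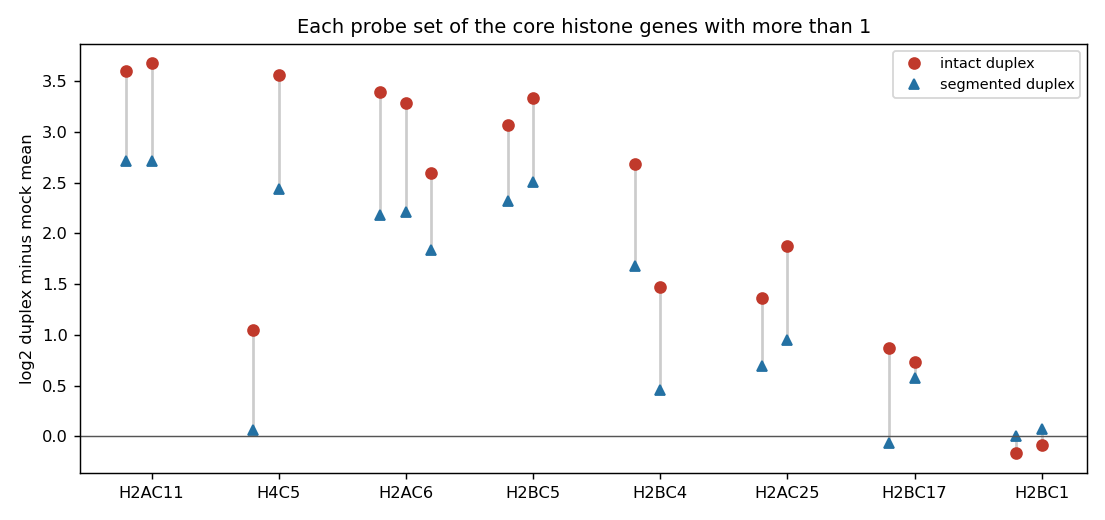
Log2 change from mock (y axis) of each probe set of the 8 core histone genes with several (x axis; points of one gene side by side), with the intact duplex as red circles and the segmented duplex as blue triangles. The probe sets of H2AC11 nearly coincide, while those of H4C5 lie at 1.05 and 3.56 with the intact duplex.

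Genes of related lists were set beside the core histones. For the counts of these lists, 14.5% of all genes rose and 10.4% fell with the intact duplex, and 3.31% and 2.68% with the segmented one. Of 9 measured linker histone genes, which encode the H1 proteins on the outside of the nucleosome, 1 rose with the intact duplex, H1-2, by 1.96 from 9.28 and 9.53 to 11.37 (limma adjusted p = 0.00926), and 1 fell, H1-4, by 0.66 (adjusted p = 0.0323). H1-10 stood at 0.58 and H1-5 at -0.23, and neither passed. None of the 9 passed with the segmented duplex (0 by limma, 3 at an unadjusted p under 0.05), where H1-2 stood at 0.63. Of 11 measured histone variant genes outside the core list, 1 rose, H2AJ, by 0.97 (limma adjusted p = 0.017), and 1 fell, H2AZ1, by 0.62 (adjusted p = 0.0397). H3-3A (0.37) and H3-3B (0.52) did not pass. None of the 11 passed with the segmented duplex (0 by limma, 2 at an unadjusted p under 0.05). The counts of both lists were higher under other settings, up to 5 of the variants that rose with either duplex with a trended and robust prior. Shares of all genes under those settings are not given here.

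Among factors for histone transcription and for the stem-loop end of histone mRNA, the largest change was that of SLBP, which binds the stem-loop. SLBP stood at 11.22 and 11.27 in mock cells, 8.82 with the intact and 9.67 with the segmented duplex. It fell by 2.43 and 1.58 (limma adjusted p = 0.00822 and 0.0349). NPAT, the coactivator of histone gene transcription, fell by 1.44 with the intact duplex from 9.63 and 9.71 to 8.23 (limma adjusted p = 0.00962) and stood at -0.57 with the segmented duplex (adjusted p = 0.0843). With the intact duplex 8 of the 29 measured factors fell and 2 rose, with the segmented duplex 2 fell and 1 rose, and the list medians were -0.10 and -0.08. CTIF, a translation factor of newly made mRNAs that has been tied to histone mRNA, rose by 1.58 with the intact duplex. The decapping enzyme gene DCP2 was at -1.33 by its brightest probe set, but only 2 of its 5 probe sets went that way. Besides SLBP, the exonuclease gene ERI1 fell (-1.01) and the SLBP partner gene MIF4GD rose (1.05) with the segmented duplex; both were named after their values were seen.

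S phase genes act when replication-dependent histone genes are mainly transcribed. The intact duplex gave 27 of 32 measured S phase genes that fell and 0 that rose, the segmented duplex 8 and 0, with medians of -1.15 and -0.52; over all genes 10.4% and 2.68% fell. DTL fell by 3.69, MCM10 by 3.58, CDK2 by 3.33 and CCNE2 by 3.22 with the intact duplex. The part of these changes in the values of the histone genes was not tested.

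**Figure D5:**
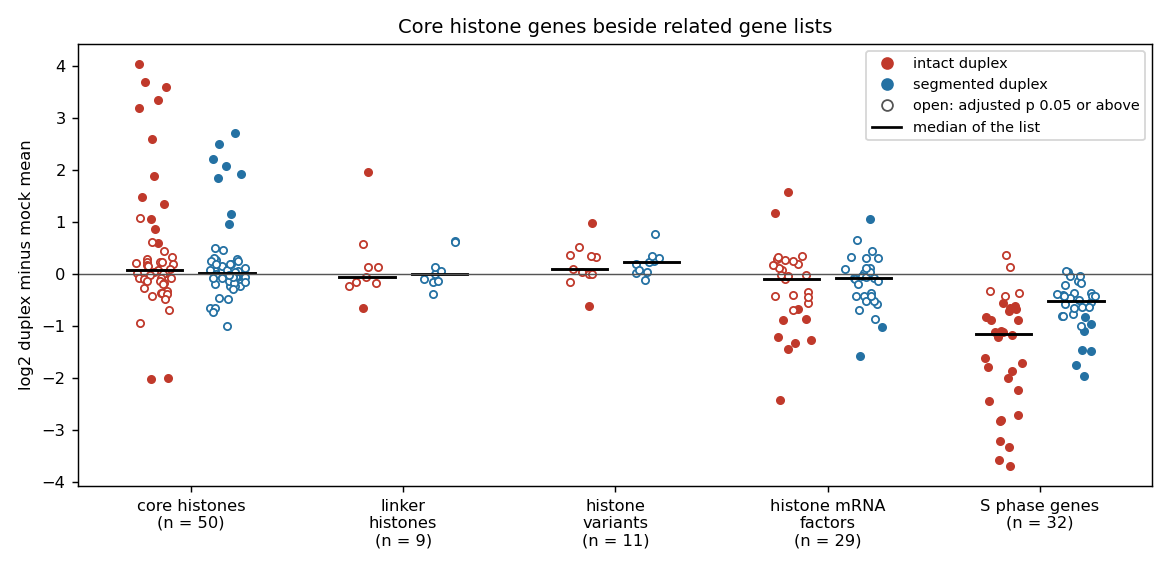
Log2 change from mock (y axis) of each gene of 5 lists (x axis, with the number measured), with the intact duplex in red and the segmented duplex in blue; filled points have a limma adjusted p under 0.05 and black bars are list medians. The core histones spread upward to 4.03 with medians near 0, and the S phase genes lie mostly below 0 with medians of -1.15 and -0.52.

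The labelled cell type was checked on markers. EPCAM, an epithelial surface protein, stood between 13.01 and 13.06 on all 4 arrays, and the epithelial genes CDH1 and KRT19 lay above 11 and up to 11.83, the colon factor gene CDX2 lay between 7.67 and 8.38 and KRT18 between 8.39 and 8.96, while the colon markers VIL1 and KRT20 lay at 5.89 or under. Of these 7 genes 2 rose with the intact duplex, CDH1 by 0.79 and CDX2 by 0.69 (limma adjusted p = 0.0227 and 0.0291). Of 16 measured markers of other cell types 3 rose with the intact duplex, the smooth muscle actin gene ACTA2 by 2.23, the synapse gene SYP by 1.27 and the collagen gene COL1A1 by 1.20, where 14.5% of all genes rose. The other markers of the same types did not pass with the intact duplex. Of these, MYH11 stood at 0.05, RBFOX3 at -0.31, ELAVL3 at 0.12, COL3A1 at 0.05, DCN at -0.07 and PDGFRB at -0.13. With the segmented duplex 0 of the 16 passed by limma (4 had an unadjusted p under 0.05). Summed over the 16, the intensity was 860.1 and 792.2 in mock cells, 1884 on the intact and 1082 on the segmented array, a sum that holds ACTA2 (log2 7.21 and 7.14 in mock cells, 9.40 on the intact array) and COL1A1 (log2 8.71 and 8.41, then 9.76). Their median change with the intact duplex was -0.01, and the leukocyte marker PTPRC and the endothelial markers PECAM1, CDH5 and VWF lay at 4.68 or under on every array. The part of these markers in the histone values was not tested.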

How the data were processed

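Biotin-labelled RNA of 4 samples was read on 1 array each, per the labels' protocols. In the deposited table each value is a linear intensity (2.51 to 22268) of a probe set, made with RMA by the authors per the submitters' processing notes; no RMA version or genome build is given in the sources used here. The quantile step of RMA is meant to even out a shift common to all genes, so such a shift may be hidden. The median log2 over genes still was 6.67 and 6.60 on the mock arrays, 6.88 on the intact and 6.83 on the segmented array. Precision is limited by having 4 arrays.

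The log2 of each intensity was used without a pseudocount. Probe sets were named through the platform annotation (35184 of 52377 with 1 gene, 374 with several, 16819 not listed) and updated by Entrez identifier to the RefSeq table of GRCh38.p14, which 35134 matched. Probe sets with several genes, 1 of which includes a core histone gene, were left out. The brightest probe set stood for a gene. limma 3.58.1 in R 4.3.3 fitted a mean for each of the 3 groups, with 1 residual degree of freedom (the mock pair) and 2.89 prior degrees of freedom; the spread of a lone duplex array is taken to equal that of the mock pair. The threshold was an adjusted p of 0.05 over 19798 genes.

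The members and lists were chosen with earlier results of these data known. Named were the 8 largest rises and falls per duplex among members past the threshold, in each family the member with the highest mock mean and the one with the smallest change, genes of neighbouring pairs with a member past it, and up to 4 genes of each other list, with SLBP and NPAT. Some members, such as H2AC14, H3C6, H2BC13 and H2BC1, are described outside this rule. Promoter windows are RefSeq's (250 bases before and 50 after the start); where a gene had several, any match counted and the first was printed. Cell type markers were 8 genes of colon epithelium, 7 of them measured (KRT8 was not), and 18 of other types, 16 measured.

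Alternatives were a further quantile normalization, centring, a filter on the dimmest 40% of genes, log2 of the value + 16, the mean or median of probe sets, a trended and robust prior, symbols that go on after the number, and each mock array left out.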

Additional observations from a re-analysis of the deposited data

How the results depend on the processing

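The number of core histone genes that rose kept within 10 to 13 with the intact and 8 to 10 with the segmented duplex under all alternatives tried, and the counts at least 1.5-fold above both mock arrays within 9 to 14 and 8 to 10. The numbers that fell, the comparison of the duplexes and the list medians moved. With centred arrays 6 fell with the intact and 1 with the segmented duplex, and the medians were -0.16 and -0.17. When the dimmest 40% of genes by the mean over all arrays were dropped, 16 members remained. Of these 2 fell with the segmented duplex, and 1 was higher and 8 lower in the segmented than in the intact array. The medians were 1.40, 0.71 and, between duplexes, -0.57. These values cover only the members kept, and high duplex values helped a gene to be kept. On log2 of the value + 16, 1 fell with the segmented duplex, 1 was higher and 9 lower between duplexes, and the intact median was 0.0348; after a further quantile normalization it was 0.0289. With a trended and robust prior 3 fell with the segmented duplex, and 2 were higher and 10 lower between duplexes. Without mock replicate 1 or 2 no residual degree of freedom was left, so no test could be run: members at least 1.5-fold below ranged from 3 to 6 (intact) and 3 to 4 (segmented), and the medians from 0.08 to 0.11 (0.0757 to 0.1132) and from 0.0009 to 0.065.

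For the related lists, when the dimmest genes were dropped, linker histones gave 2 higher (intact), 2 higher and 1 lower (segmented), variants 5 and 2 higher, histone mRNA factors 13 lower (intact), 3 higher and 11 lower (segmented), and S phase genes 25 lower (segmented). With the trended and robust prior linker histones gave 2 and 2 higher, variants 5 and 5 higher, factors 4 higher and 13 lower (intact), 5 higher and 11 lower (segmented), and S phase genes 1 higher (intact) and 25 lower (segmented). The cause of these differences was not tested. The share of all genes called under each alternative is not given here. A general gain in calls thus cannot be told apart from one in these lists. Of single members past the threshold or 1.5-fold from mock, 23 tested values became called, 3 lost the call (all H2BC8), 210 kept their side and direction, and 4 changed sign, past the threshold on neither side, all with the segmented duplex: H4C5 (0.0606) at -0.0068 after a further quantile normalization and -0.1326 with centred arrays, and H2BC17 (-0.0648) at 0.2554 with the mean or the median of its probe sets. Against a single mock array, where nothing could be tested, H2BC17 stood at 0.0864 without mock replicate 1 and H2AC4 (-0.0277) at 0.3434 without mock replicate 2. Leaving out probe sets with a suffix for shared sequence could not be run, since no probe set carries one. No paired analysis was possible because each duplex has 1 array, so the groups compared share fewer than 2 replicate numbers. No detection call was used, so rises from dim mock values, as of H2BC11 or H4C5, have an uncertain size.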
